A study of Mus musculus with 10 samples.

Results

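The genes described here are 29 genes used to recognise red blood cell precursors, megakaryocytes and platelets, of 20564 genes measured on arrays of mouse MLL-AF9 acute myeloid leukaemia. They fell into 15 erythroid genes and 14 megakaryocyte and platelet genes, chosen by symbol, and each was represented by the probe set of that symbol with the highest mean over all arrays. All 29 genes had a probe set, and no filter on low values was applied.

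The samples were 3 Eed-null, 4 Ezh2-null and 3 WT arrays, 1 array for each sorted sample. Eed is a core subunit and Ezh2 a catalytic subunit of PRC2, the Polycomb complex that methylates lysine 27 of histone H3 and keeps many lineage genes silent. All 3 groups, WT included, were leukaemias of the C57B/6 background started by an MLL-AF9 retrovirus that also carried GFP, and in all of them the sorted cells carried both GFP and YFP, the sign of past Cre activity. Recipients had received 600 cGy and 100000 cells of replated leukaemic colonies, pIpC was given 2 to 3 weeks later to turn on Cre, and the floxed alleles and the Cre driver are not given in the labels used here. The labels call the samples biological replicates without naming donors or cultures, so p-values weigh differences against the spread between these samples only. Because the sort kept leukaemic bone marrow cells, a lower signal for a lineage gene cannot be told apart between fewer cells of that lineage and less RNA per cell.

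Erythroid cells arise from progenitors in which the transcription factors Gata1 and Klf1 switch on genes for the erythropoietin response, iron uptake, haem and globin synthesis and the membrane skeleton. Megakaryocytes share Gata1 with them, add factors of the ETS family, and make the surface glycoproteins, granule proteins and tubulin that platelets carry. Acute myeloid leukaemia driven by MLL-AF9 is blocked at a granulocyte and monocyte stage, so these genes mark the lineages beside it.

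The promoters give the sequence context of that regulation. RefSeq promoter windows of build GRCm38.p6 were matched for 21 of the 29 genes, with 250 bases upstream of each start searched on both strands for GATA motifs (AGATAA or TGATAA or AGATAG), the CACC box bound by Klf1 (CACACCC) and ETS motifs (GGAAGT or GGAAGG). None of the 3 motifs contains another. Tfrc has 2 start sites in that table, whose windows overlap and were both counted. GATA motifs were found in 7 of 11 erythroid windows (63.6%) and 3 of 11 platelet windows (27.3%), against 22.3% of all 32851 windows. The CACC box was found in 3 erythroid windows (27.3%) and 0 platelet windows, against 6.93% of all. ETS motifs were found in 5 erythroid windows (45.5%) and 9 platelet windows (81.8%), against 41.6% of all. Car1, Car2, Slc4a1, Ank1, Nfe2, Vwf, Itgb3 and Thbs1 were not matched. These counts describe letters in a window and not bound sites. The windows of 4 genes are shown with every motif match in capitals, Klf1 for its GATA and CACC letters, Gp1ba for its GATA and ETS letters, and Selp and Clec1b because they had the lowest unadjusted p among the platelet genes in the comparisons that follow.
Klf1 (chr8:84901732-84901981, plus strand): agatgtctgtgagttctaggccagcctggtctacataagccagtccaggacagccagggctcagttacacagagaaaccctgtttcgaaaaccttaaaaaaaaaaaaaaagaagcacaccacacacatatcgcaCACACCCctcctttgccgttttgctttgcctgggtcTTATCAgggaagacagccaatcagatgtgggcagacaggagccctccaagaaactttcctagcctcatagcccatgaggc
Gp1ba (chr11:70638872-70639121, plus strand): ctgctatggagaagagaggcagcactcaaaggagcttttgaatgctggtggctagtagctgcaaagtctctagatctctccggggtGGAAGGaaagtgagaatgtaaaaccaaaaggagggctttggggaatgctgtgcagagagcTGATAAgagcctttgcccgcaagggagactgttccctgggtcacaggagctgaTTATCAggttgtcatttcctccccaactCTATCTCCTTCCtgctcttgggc
Selp (chr1:164115014-164115263, plus strand): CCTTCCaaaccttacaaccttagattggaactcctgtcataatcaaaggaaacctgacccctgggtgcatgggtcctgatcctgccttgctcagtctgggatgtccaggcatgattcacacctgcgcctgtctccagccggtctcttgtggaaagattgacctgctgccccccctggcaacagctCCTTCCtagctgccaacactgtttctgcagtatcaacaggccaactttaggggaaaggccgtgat
Clec1b (chr6:129397047-129397296, plus strand): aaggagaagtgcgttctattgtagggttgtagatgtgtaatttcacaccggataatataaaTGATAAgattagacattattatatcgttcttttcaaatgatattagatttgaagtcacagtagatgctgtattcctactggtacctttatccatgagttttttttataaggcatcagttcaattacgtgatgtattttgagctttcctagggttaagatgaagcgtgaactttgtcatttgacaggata

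No member passed limma's threshold of adjusted p under 0.05 in any comparison, and few genes did at all. Between Ezh2-null and WT, 0 of 29 members were called, against 0.0243% of all genes, and 3 members (10.3%) had an unadjusted p under 0.05, against 3.74% of all genes. Between Eed-null and WT, 0 members were called, against 0.131% of all genes, and 4 (13.8%) had an unadjusted p under 0.05, against 10.4%. Between Eed-null and Ezh2-null, 0 members were called, against 0.0778%, and 2 (6.90%) had an unadjusted p under 0.05, against 9.17%. The first 2 of these comparisons share the WT arrays.

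The erythroid genes sat close to WT in both null groups. Their median log2 difference was 0.05 in Ezh2-null minus WT, 0.09 in Eed-null minus WT and 0.07 in Eed-null minus Ezh2-null, beside medians of -0.02, 0.03 and 0.04 over all genes. Positive differences were found for 10, 12 and 11 of the 15 genes. The platelet genes had medians of 0.05, 0.23 and 0.12, with 9, 11 and 10 of 14 genes positive. Their differences spread further, between -1.03 and 1.22, between -0.82 and 1.495, and between -0.27 and 2.01 in the same order. In the plot of differences, the intervals of all 15 erythroid genes crossed 0 against WT, and those of Clec1b, Itgb3, Tubb1, Vwf and Selp did not in at least 1 comparison.

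**Figure D1:**
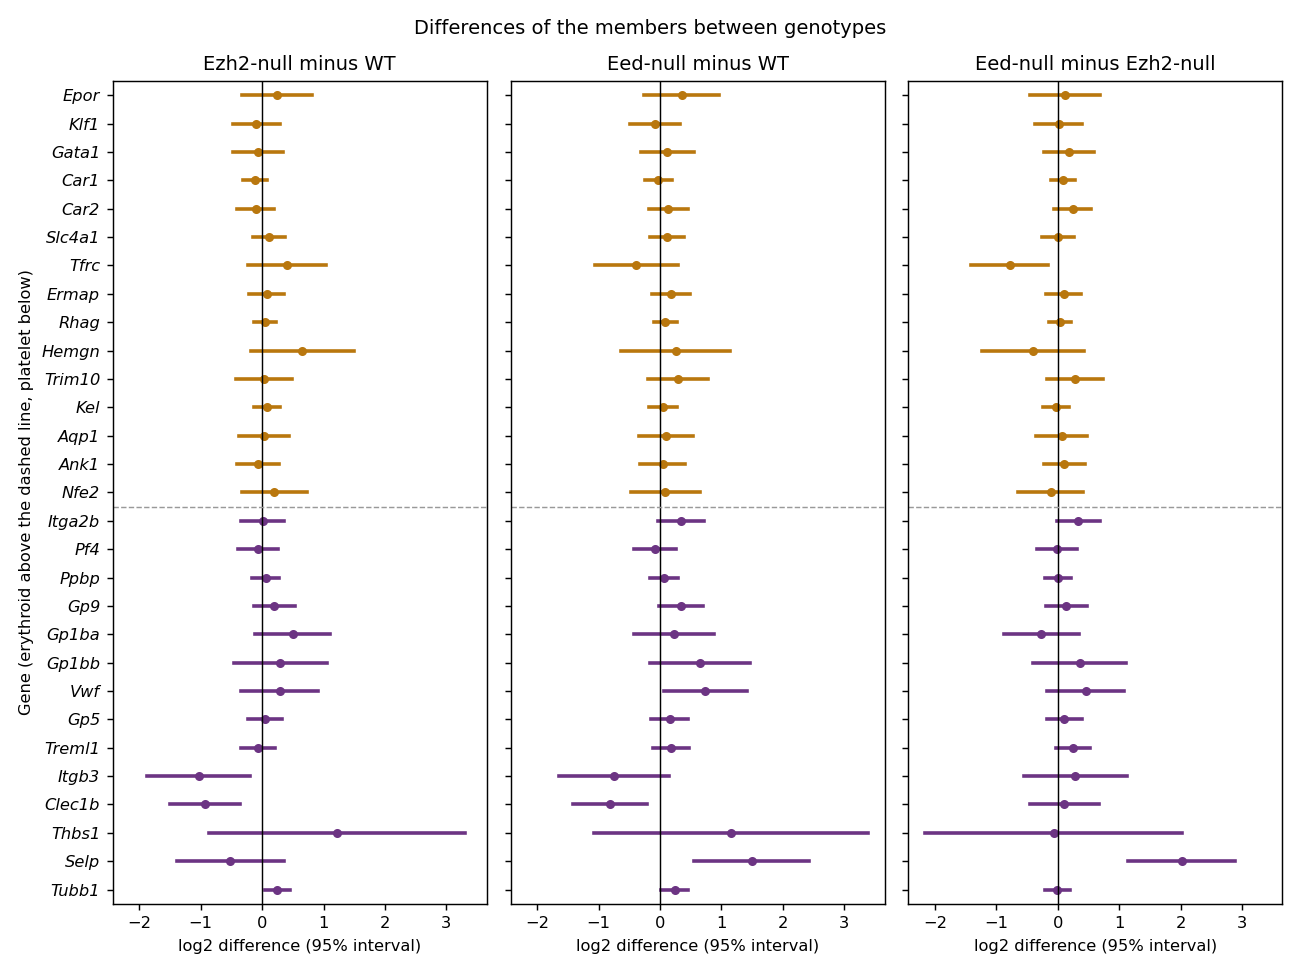
Log2 differences of the 29 genes (points) with 95% intervals from limma's moderated standard error (lines), for Ezh2-null minus WT, Eed-null minus WT and Eed-null minus Ezh2-null, with erythroid genes above the dashed line and platelet genes below it. Selp lies furthest to the right, at 2.01 in Eed-null minus Ezh2-null, and Itgb3 and Clec1b lie left of 0 in both comparisons with WT.

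Many of these genes had probe sets as dim as those of genes that blood cells do not use. As a guide to the background, 44 probe sets of olfactory receptors had means over all arrays whose 95th percentile was 6.87 on the log2 scale, although the brightness of a probe set also depends on its sequence. Of the erythroid genes, 6 of 15 (40%) had a mean above that level, of the platelet genes 9 of 14 (64.3%), and of all genes 61.0%. Epor, Tfrc, Trim10, Ank1 and Nfe2 were above it in every array, as were Itga2b, Gp9 and Itgb3. Lying below it in every array were 7 erythroid genes, Gata1, Car1, Car2, Ermap, Rhag, Kel and Aqp1, and 4 platelet genes, Pf4, Ppbp, Gp5 and Tubb1. The brightest olfactory receptor probe set had a mean of 7.53, above those of Trim10 (7.34) and Itga2b (7.275) and about that of Epor (7.535). The other Ank1 probe sets were dimmer than the one used, at 6.72 to 7.01, 5.91 to 6.54 and 5.51 to 5.98.

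Among the erythroid regulators, Nfe2, a leucine zipper factor that megakaryocytes and myeloid cells use too, was bright at 10.37 to 11.49 over the 10 arrays. Klf1, the erythroid Krüppel-like factor whose promoter is shown above, lay at the edge of the background level, at 6.78 to 7.40. Gata1, the master factor of both lineages, lay well below it in every array, at 4.56 to 5.35, and gave 4.93 to 5.29 in Eed-null, 4.59 to 5.03 in Ezh2-null and 4.56 to 5.35 in WT arrays. The 3 genotypes overlapped for all 3 factors. Their largest difference between genotypes was 0.20 (SE 0.24), for Nfe2 in Ezh2-null minus WT (limma, adjusted p = 1.00).

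Epor, the erythropoietin receptor, was among the genes above the background guide in every array. It gave 7.56, 7.19 and 8.31 in Eed-null arrays, 7.35, 7.42, 7.97 and 7.56 in Ezh2-null arrays, and 7.10, 7.36 and 7.54 in WT arrays. Its highest value was in Eed-null replicate 3 and the groups overlapped. The difference was 0.35 (SE 0.28) in Eed-null minus WT and 0.24 (SE 0.26) in Ezh2-null minus WT (limma, adjusted p = 0.693 and 1.00).

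Tfrc, the transferrin receptor that brings iron into erythroblasts and into dividing cells of other kinds, was bright in all arrays and differed most between the null genotypes among the erythroid genes. It gave 9.15, 9.67 and 10.46 in Eed-null arrays, 10.62, 10.74, 10.34 and 10.48 in Ezh2-null arrays, and 10.09, 9.85 and 10.48 in WT arrays. Eed-null replicates 1 and 2 were the lowest of all 10 arrays, while Eed-null replicate 3 fell within the Ezh2-null range. Eed-null averaged 9.76 ± 0.66 (SD, n = 3) and Ezh2-null 10.54 ± 0.17 (SD, n = 4), a difference of -0.78 (SE 0.29, 95% interval -1.42 to -0.15) with a limma unadjusted p of 0.0198 and an adjusted p of 0.469. Without Eed-null replicate 1 it was -0.48. A second Tfrc probe set differed by -0.22 and another by -0.31, and 3 Tfrc probe sets among the array's control probe sets by -0.23 to -0.35. All 6 probe sets thus had the same sign, the 5 others with a smaller size. Cell cycle genes lay in the same direction, with 24 of 24 negative and a median of -0.32 in Eed-null minus Ezh2-null, and 24 of 24 negative and a median of -0.43 in Eed-null minus WT. Of these 24, 0 were called, with 8 (33.3%) and 9 (37.5%) at an unadjusted p under 0.05 (limma), against 9.17% and 10.4% of all genes. Within Eed-null the order of the arrays depended on the Tfrc probe set. Replicate 3 had the lowest cell cycle average of all arrays, at 9.48. It had the highest Eed-null value of Tfrc on the probe set used and on each control probe set. On the second Tfrc probe set it had the lowest, at 9.58 against 9.997 and 10.075 in replicates 1 and 2. The part of cell cycle genes in the Tfrc values was not tested.

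Hemgn, hemogen, a nuclear protein of haematopoietic precursors, had the widest range of the erythroid genes, 1.81 over the arrays. It gave 6.93, 5.77 and 6.81 in Eed-null arrays, 6.78, 7.15, 7.15 and 6.53 in Ezh2-null arrays, and 6.54, 6.87 and 5.34 in WT arrays. WT replicate 3 and Eed-null replicate 2 were the lowest, and the genotypes overlapped. The difference was 0.66 (SE 0.38) in Ezh2-null minus WT and 0.26 (SE 0.40) in Eed-null minus WT (limma, adjusted p = 1.00 and 0.861), and 0.20 and -0.20 without WT replicate 3. Trim10, a RING finger protein that erythroid differentiation needs in cultured mouse cells, lay at 7.04 to 8.09 with its highest value in Eed-null replicate 1.

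The genes of the erythroid membrane and of carbon dioxide transport varied little. Slc4a1, the band 3 anion exchanger, lay at 6.63 to 6.99 and Ank1, the ankyrin that ties band 3 to the spectrin skeleton, at 7.53 to 7.99. Rhag, the Rh-associated glycoprotein, lay at 3.24 to 3.44, the Kell antigen gene Kel at 3.92 to 4.27, the erythroid membrane protein gene Ermap at 5.64 to 6.24 and the water channel gene Aqp1 at 5.92 to 6.63. Of the carbonic anhydrases, Car2 lay at 5.86 to 6.39 and Car1 at 5.65 to 5.89.

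Among the erythroid genes, only Car1 had groups without overlap, and only in Ezh2-null minus WT. It gave 5.65, 5.74, 5.70 and 5.77 in Ezh2-null arrays and 5.79, 5.86 and 5.82 in WT arrays, so every Ezh2-null array lay below every WT array. The difference was -0.11 (SE 0.09) at a level under the background guide (limma, adjusted p = 1.00). Of all 29 members, 1 was higher in Ezh2-null than in WT without overlap, against 2.21% of all genes, and 3 were lower, against 2.79%. Between Eed-null and WT, 3 were higher without overlap, against 7.49% of all genes, and 0 were lower, against 5.31%. Between Eed-null and Ezh2-null, 2 were higher without overlap, against 6.81%, and 0 were lower, against 3.74%.

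**Figure D2:**
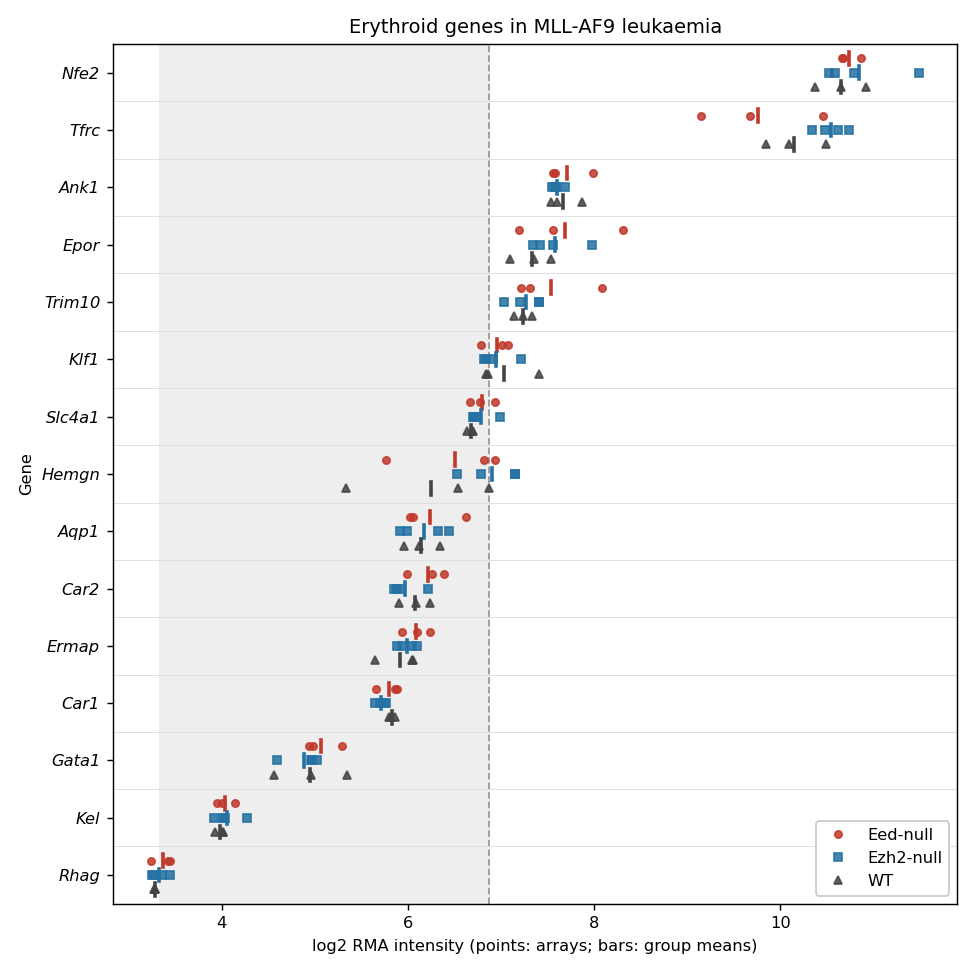
Log2 RMA intensity of the 15 erythroid genes on each array (points), with group means (bars), for Eed-null, Ezh2-null and WT, ordered by mean. The grey band spans the means of olfactory receptor probe sets up to their 95th percentile at 6.87 (dashed line). Nfe2 and Tfrc stand near 10, and Gata1, Kel and Rhag lie under 6 in every array.

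Among the platelet genes, those of the von Willebrand factor receptor differed by less than 1 log2 unit between genotypes. Gp9, its smallest chain, gave 8.27, 8.35 and 8.35 in Eed-null arrays, 8.004, 8.04, 8.30 and 8.38 in Ezh2-null arrays, and 7.95, 8.12 and 7.88 in WT arrays. Every Eed-null array lay above every WT array, and the Ezh2-null arrays spanned both. The difference in Eed-null minus WT was 0.34 (SE 0.16), or 1.26-fold (limma, adjusted p = 0.505). Gp1ba, the ligand-binding chain whose promoter is shown above, lay at 6.79 to 8.11 and differed by 0.50 (SE 0.28) in Ezh2-null minus WT. Gp1bb lay at 6.78 to 8.68, with the highest value in Eed-null replicate 3, and differed by 0.65 (SE 0.36) in Eed-null minus WT, or 0.21 without that array, while its second probe set differed by 0.09. A brighter probe set that also matches another symbol, with group means of 9.17 to 9.63, was left out of the comparisons and differed by 0.02. Gp5, the remaining subunit, lay at 5.32 to 5.801. Gp1ba, Gp1bb and Gp5 overlapped between all genotypes.

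Vwf, von Willebrand factor itself, which platelets and endothelial cells store, gave 7.00, 8.16 and 7.99 in Eed-null arrays, 7.57, 6.98, 7.15 and 7.36 in Ezh2-null arrays, and 7.14, 7.24 and 6.56 in WT arrays. Eed-null replicates 2 and 3 were the highest arrays, but Eed-null replicate 1 lay within the WT range. Eed-null averaged 7.72 ± 0.63 and WT 6.98 ± 0.37 (SD, n = 3 each), a difference of 0.74 (SE 0.30, 95% interval 0.065 to 1.41) with a limma unadjusted p of 0.0345 and an adjusted p of 0.448.

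The integrin subunits differed in direction. Itga2b, the alpha subunit of the platelet fibrinogen receptor, lay at 7.01 to 7.82, with a difference of 0.34 (SE 0.17) in Eed-null minus WT (limma, adjusted p = 0.521). Itgb3, its beta partner, which also pairs with the alpha V chain in many cell types, had the widest range after Thbs1 and Selp. It gave 10.21, 10.09 and 8.88 in Eed-null arrays, 9.96, 9.50, 8.72 and 9.60 in Ezh2-null arrays, and 10.89, 10.04 and 10.50 in WT arrays. Every Ezh2-null array lay below every WT array, whereas 2 of the 3 Eed-null arrays lay above the lowest WT array.

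Itgb3 averaged 9.45 ± 0.52 in Ezh2-null arrays (SD, n = 4) and 10.48 ± 0.42 in WT arrays (SD, n = 3). The difference was -1.03 (SE 0.38, 95% interval -1.87 to -0.19), 2.04-fold lower, with a limma unadjusted p of 0.0205 and an adjusted p of 1.00. In Eed-null minus WT it was -0.75 (SE 0.40; limma, adjusted p = 0.563), and -0.33 without Eed-null replicate 3. A second Itgb3 probe set gave differences of -0.51 and -0.47 in the 2 comparisons, the same sign at a smaller size. On it the groups overlapped in both comparisons, with Ezh2-null replicate 4 at 7.31 and WT replicate 3 at 7.23.

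Clec1b, the platelet receptor for podoplanin, was higher in WT than in either null genotype. It gave 6.27, 6.62 and 5.98 in Eed-null arrays, 6.21, 5.88, 6.49 and 6.15 in Ezh2-null arrays, and 7.73, 6.98 and 6.61 in WT arrays. Every Ezh2-null array lay below every WT array, and Eed-null replicate 2 lay just above WT replicate 3. Only WT replicates 1 and 2 exceeded the background guide of 6.87.

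The difference for Clec1b was -0.92 (SE 0.26, 95% interval -1.49 to -0.35) in Ezh2-null minus WT, 1.90-fold lower, with a limma unadjusted p of 0.00453 and an adjusted p of 1.00. In Eed-null minus WT it was -0.82 (SE 0.27, 95% interval -1.42 to -0.21), with an unadjusted p of 0.0134 and an adjusted p of 0.349. Without WT replicate 1, the highest array, the differences were -0.61 and -0.50. There was a single Clec1b probe set, so no second measurement was at hand.

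Selp, P-selectin, an adhesion receptor kept in platelet alpha granules and in endothelial cells, had the largest difference of any member. It gave 7.68, 7.58 and 9.20 in Eed-null arrays, 6.39, 6.09, 5.63 and 6.44 in Ezh2-null arrays, and 7.23, 6.54 and 6.20 in WT arrays. All Eed-null arrays were higher than all others, with Eed-null replicate 3 the highest, and Ezh2-null and WT overlapped. All 4 Ezh2-null arrays lay under the background guide, all 3 Eed-null arrays above it, and 1 of 3 WT arrays above it.

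Selp averaged 8.15 ± 0.91 in Eed-null arrays (SD, n = 3) and 6.14 ± 0.38 in Ezh2-null arrays (SD, n = 4). The difference was 2.01 (SE 0.39, 95% interval 1.14 to 2.89), or 4.04-fold, with a limma unadjusted p of 0.000396 and an adjusted p of 0.143. Against WT, at 6.66 ± 0.53 (SD, n = 3), the Eed-null difference was 1.495 (SE 0.42, 95% interval 0.56 to 2.43), or 2.82-fold, with an unadjusted p of 0.00493 and an adjusted p of 0.264. It was 0.97 without Eed-null replicate 3. In Ezh2-null minus WT the difference was -0.52 (SE 0.39; limma, adjusted p = 1.00).

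Both other Selp probe sets were higher in Eed-null than in Ezh2-null arrays on average, by 1.29 and 1.98. The first gave 6.18, 7.67 and 7.69 in Eed-null arrays, 5.60, 6.18, 6.08 and 5.69 in Ezh2-null arrays, and 6.55, 6.57 and 5.88 in WT arrays. The second gave 7.54, 5.42 and 7.32 in Eed-null arrays, 5.46, 4.49, 4.505 and 4.69 in Ezh2-null arrays, and 5.58, 4.11 and 4.68 in WT arrays. The 3 probe sets did not rank the Eed-null arrays alike, and Eed-null replicate 3 was high on each of them. With the mean of all 3 probe sets in place of the brightest, the Eed-null minus Ezh2-null difference was 1.76 and passed the threshold (limma, adjusted p = 0.0491), and over the other alternatives the adjusted p reached 0.479. The promoter window of Selp printed above held 2 ETS motifs and no GATA motif.

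Because Vwf and Selp are also endothelial genes, endothelial and stromal markers were set beside them. Of 16 such markers, 6 had a mean above the background guide, and their average log2 level lay at 6.70 to 6.83 in Eed-null, 6.53 to 6.73 in Ezh2-null and 6.62 to 6.85 in WT arrays. Between Eed-null and Ezh2-null, 14 of the 16 were positive, with a median difference of 0.15, and 0 were called (limma). Pecam1 and Tie1 (12.5%) had an unadjusted p under 0.05, against 9.17% of all genes. The endothelial genes Cdh5, Kdr, Tek, Emcn and Tie1 were under 6 in all 10 arrays, while Plvap lay at 5.57 to 6.27 and Esam averaged 6.92. The stromal genes Col1a1, Pdgfrb and Lepr averaged 7.59, 8.715 and 6.99, above the guide. Pecam1, an adhesion protein of endothelial cells that platelets and leukocytes carry too, was bright in every array, at 9.60, 10.33 and 10.32 in Eed-null arrays, 9.68, 9.48, 9.47 and 9.59 in Ezh2-null arrays, and 10.35, 10.20 and 10.19 in WT arrays. It was 0.53 (SE 0.20) higher in Eed-null than in Ezh2-null (limma, adjusted p = 0.480), and every Ezh2-null array lay below every WT array, by a mean difference of -0.69 (SE 0.20; limma, adjusted p = 1.00). Sele, E-selectin, lay at 8.13 to 10.001 with its highest value in Eed-null replicate 3, which was also the highest array for Selp. Its lowest value was in Eed-null replicate 1, where Selp depended on the probe set. On the probe set used, Selp in that array, at 7.68, was above every Ezh2-null and WT array. The same held on the dimmest Selp probe set, at 7.54. On the remaining Selp probe set that array gave 6.18, within the WT range and the lowest of the Eed-null arrays. Sele averaged 8.885 in Eed-null, 8.695 in Ezh2-null and 9.01 in WT arrays. Its highest mean was thus in WT, and that of Selp in Eed-null. The part of other cells in the Selp values was not tested.

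**Figure D3:**
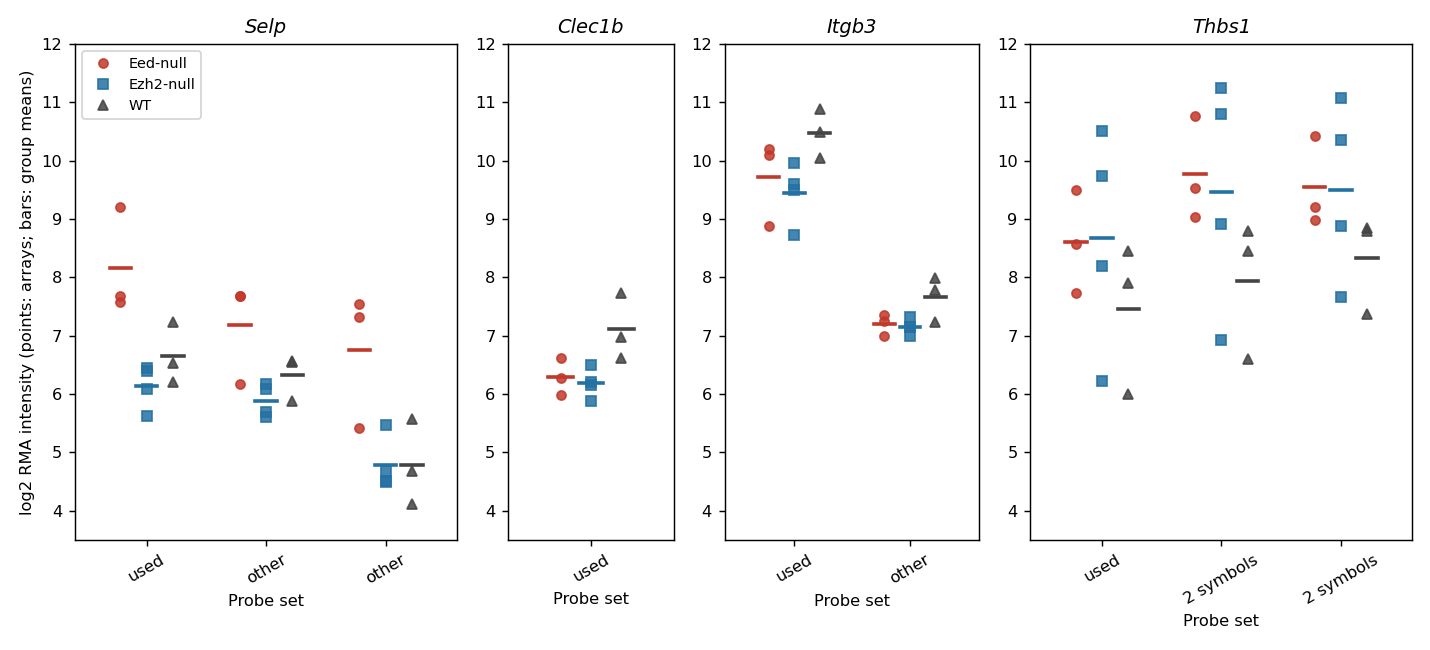
Log2 RMA intensity of every probe set of Selp, Clec1b, Itgb3 and Thbs1 on each array (points) with group means (bars), for Eed-null, Ezh2-null and WT. The probe set marked as used entered the comparisons, and those marked 2 symbols also match another gene symbol. Eed-null lies above Ezh2-null on average for all 3 Selp probe sets, and WT lies above both null genotypes on average for both Itgb3 probe sets.

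Thbs1, thrombospondin, a protein of platelet alpha granules that monocytes make too, was the most variable member. It gave 9.50, 7.73 and 8.57 in Eed-null arrays, 10.51, 6.23, 8.19 and 9.74 in Ezh2-null arrays, and 7.90, 8.46 and 5.99 in WT arrays. Its pooled SD within genotypes of 1.49 exceeded that of 99.9% of genes, and its range over arrays was 4.52. Ezh2-null replicate 2 and WT replicate 3 were far below the rest.

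The Thbs1 difference was 1.15 (SE 1.01) in Eed-null minus WT and 1.22 (SE 0.94) in Ezh2-null minus WT, neither larger than the spread between arrays (limma, adjusted p = 0.730 and 1.00). Without WT replicate 3 the differences were 0.42 and 0.49. The same 2 arrays had the lowest values of Serpine2, a protease inhibitor found in platelets, at 5.99 in Ezh2-null replicate 2 and 4.79 in WT replicate 3, against 7.68 or more in the other arrays. They also had the lowest monocyte marker averages of their genotypes, at 8.18 and 8.16, and the highest cell cycle gene averages of all arrays, at 10.56 and 10.71. Their granulocyte marker averages, at 12.27 and 10.97, were the lowest of their genotypes too. Thbs1 and the granulocyte average ranked the arrays alike within Eed-null and within Ezh2-null, but not within WT. Eed-null replicates 1 and 3 had lower monocyte averages still, at 7.98 and 8.08, with Thbs1 at 9.50 and 8.57. The part of granulocyte, monocyte or cell cycle genes in the Thbs1 values was not tested.

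**Figure D4:**
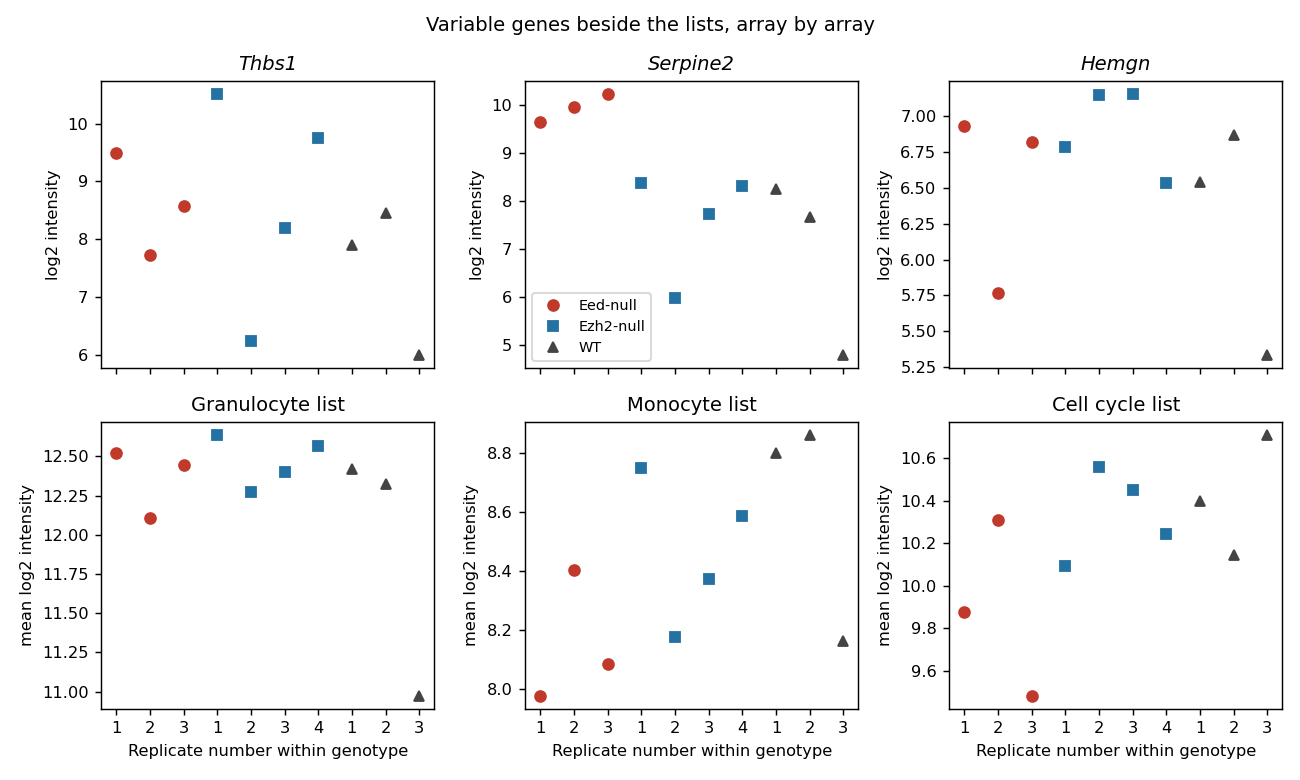
Log2 intensity of Thbs1, Serpine2 and Hemgn (upper row) and mean log2 intensity of the granulocyte, monocyte and cell cycle lists (lower row) on each array, by replicate number within Eed-null, Ezh2-null and WT. Ezh2-null replicate 2 and WT replicate 3 are lowest for Thbs1 and Serpine2 and highest for the cell cycle list, and WT replicate 3 is lowest for the granulocyte list at 10.97.

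The remaining platelet genes were dim. Treml1, a receptor of platelet alpha granules, gave 7.09, 7.20 and 7.17 in Eed-null arrays, 6.94, 6.83, 6.85 and 6.97 in Ezh2-null arrays, and 6.72, 7.09 and 7.10 in WT arrays. Every Eed-null array lay above every Ezh2-null array, by a mean of 0.25 (SE 0.13; limma, adjusted p = 0.568), and the WT arrays spanned both. Pf4 and Ppbp, the chemokines that platelets release in the largest amounts, lay at 5.94 to 6.41 and 3.63 to 3.91, both under the background guide in every array.

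Tubb1, the tubulin of the platelet's marginal band, was higher in both null genotypes than in WT at a very low intensity. It gave 4.53, 4.71 and 4.67 in Eed-null arrays, 4.79, 4.67, 4.63 and 4.49 in Ezh2-null arrays, and 4.39, 4.45 and 4.35 in WT arrays. No null array overlapped WT. The difference was 0.24 (SE 0.10) in Eed-null minus WT and 0.25 (SE 0.09) in Ezh2-null minus WT, with unadjusted p of 0.0331 and 0.0209 and adjusted p of 0.442 and 1.00 in limma. Every value was more than 2 log2 units under the background guide.

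**Figure D5:**
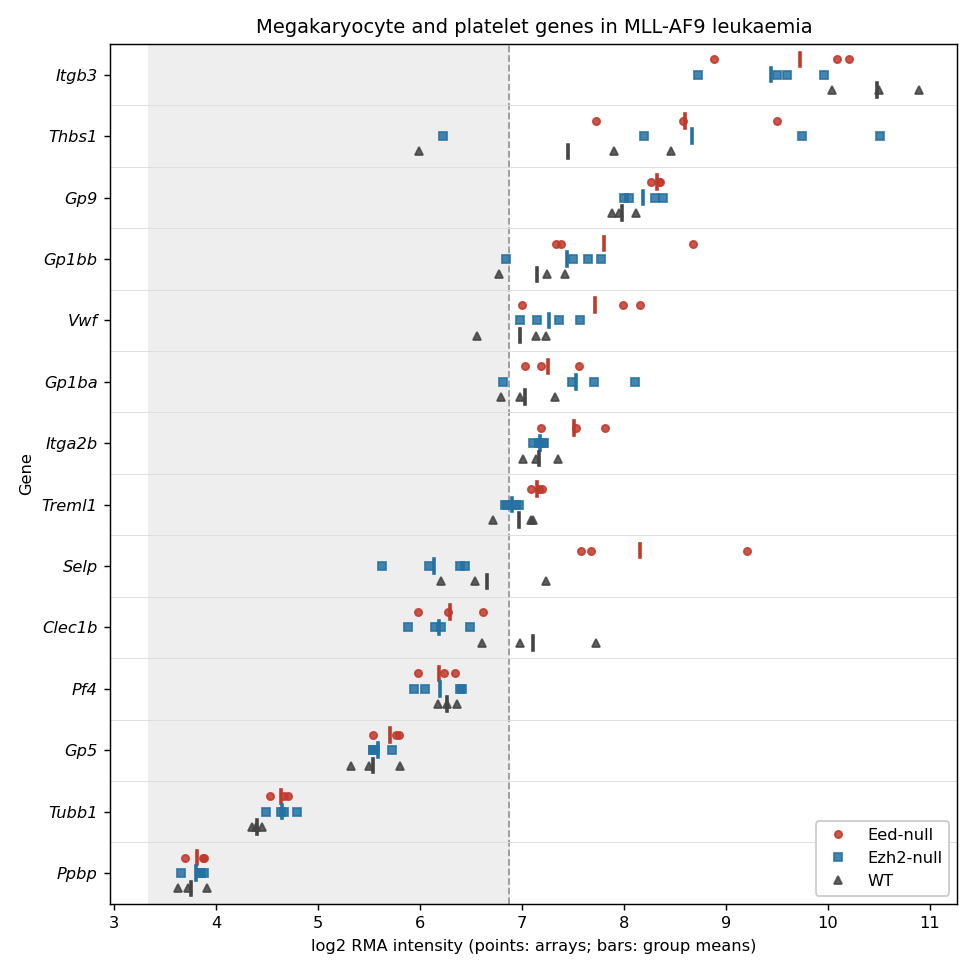
Log2 RMA intensity of the 14 megakaryocyte and platelet genes on each array (points), with group means (bars), for Eed-null, Ezh2-null and WT, ordered by mean. The grey band spans the means of olfactory receptor probe sets up to their 95th percentile at 6.87 (dashed line). Selp separates Eed-null from the other genotypes, and Thbs1 spans 5.99 to 10.51.

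Within genotypes, the erythroid genes varied about as much as genes at large and the platelet genes somewhat more. The median pooled SD was 0.22 over erythroid genes, 0.29 over platelet genes and 0.23 over all genes. A range over the arrays above 2 was found for 0 erythroid genes, 3 platelet genes (Itgb3, Selp and Thbs1) and 7.75% of all genes.

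Other genes of both lineages, not among the members, were examined by list. Of 34 further erythroid genes 27 were measured, and 0 were called in any comparison, with 1 (3.7%) at an unadjusted p under 0.05 in each (limma). Over all genes that share was 3.74% in Ezh2-null minus WT, 10.4% in Eed-null minus WT and 9.17% in Eed-null minus Ezh2-null. The globin gene Hba-a1 lay at 5.44 to 6.20 and Hbb-b2 at 4.79 to 6.68, with the highest Hbb-b2 value in WT replicate 2. Alas2, the first enzyme of erythroid haem synthesis, lay at 6.06 to 6.62. These 3 genes of haemoglobin synthesis were under the background guide in every array. Of the 27 measured, however, 17 (63.0%) had a mean above the guide and 12 were above it in every array, among them the membrane skeleton genes Sptb, Epb41 and Tmod1 (named after their values were seen), against 61.0% of all genes with a mean above it.

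The 3 further erythroid genes at an unadjusted p under 0.05 were Bpgm, Bcl11a and Gfi1b. Bpgm, bisphosphoglycerate mutase of red cells, was 0.42 (SE 0.18) higher in Ezh2-null than in WT (limma, adjusted p = 1.00). Bcl11a, a repressor of fetal globin genes that B cells and progenitors use too, was 1.15 (SE 0.44) higher in Eed-null than in WT (limma, adjusted p = 0.413), where WT replicate 3 gave 7.33 and the other WT arrays 9.19 and 9.27, and 0.52 higher without that array. Gfi1b, a repressor needed by both erythroid cells and megakaryocytes, was 0.66 (SE 0.18) higher in Eed-null than in Ezh2-null (limma, adjusted p = 0.325). It gave 7.48, 7.54 and 7.10 in Eed-null arrays, 6.36, 6.86, 6.83 and 6.81 in Ezh2-null arrays, and 6.75, 7.08 and 7.18 in WT arrays.

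Of 38 further megakaryocyte and platelet genes 35 were measured, and 0 were called, with 2, 5 and 5 at an unadjusted p under 0.05 in Ezh2-null minus WT, Eed-null minus WT and Eed-null minus Ezh2-null (limma). These were 5.71%, 14.3% and 14.3% of them, against 3.74%, 10.4% and 9.17% of all genes. A mean above the background guide was found for 20 (57.1%), and 16 were above it in every array. Tbxas1, thromboxane synthase, which monocytes use too, was 0.92 (SE 0.27) higher in Eed-null and 0.69 (SE 0.26) higher in Ezh2-null than in WT (limma, adjusted p = 0.301 and 1.00), the second being 0.42 without WT replicate 3. Vamp8, a protein of granule release in platelets and other cells, differed by 0.35 (SE 0.13) and 0.34 (SE 0.12) in the same comparisons (adjusted p = 0.4 and 1.00). Tgfb1, a growth factor stored in alpha granules, had a log2 difference of -1.10 (SE 0.46; limma, adjusted p = 0.459) in Eed-null minus WT, or -0.48 without Eed-null replicate 1. It gave 7.64, 9.66 and 9.31 in Eed-null arrays and 9.42, 10.30 and 10.18 in WT arrays, which overlapped.

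Serpine2 had the largest difference of the further platelet genes. It gave 9.66, 9.97 and 10.24 in Eed-null arrays, 8.39, 5.99, 7.74 and 8.32 in Ezh2-null arrays, and 8.24, 7.68 and 4.79 in WT arrays. Every Eed-null array exceeded every other array, by a mean of 3.05 (SE 0.84) against WT and 2.35 (SE 0.79) against Ezh2-null (limma, adjusted p = 0.258 and 0.442). Without WT replicate 3 the mean against WT was 1.99. P2ry1, a platelet receptor for ADP, was 1.15 (SE 0.38) higher in Eed-null than in Ezh2-null, with 8.26 in Eed-null replicate 1 and 6.89 and 6.48 in the other Eed-null arrays (limma, adjusted p = 0.441), and 0.63 higher without replicate 1. F5, coagulation factor V, was 0.58 (SE 0.24) higher and Ptgs1, cyclooxygenase 1, lower, with a log2 difference of -0.50 (SE 0.20), in the same comparison (limma, adjusted p = 0.520 and 0.498).

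The arrays had median intensities of 137 to 144, and arrays of 1 genotype correlated at 0.956 to 0.989 across genes. Eed was lower in Eed-null than in WT by a log2 difference of -1.89 (SE 0.21; limma, adjusted p = 0.00797), with no overlap. Ezh2 was lower in Ezh2-null than in WT by -0.85 (SE 0.25; adjusted p = 1.00), with WT replicate 2 overlapping the Ezh2-null arrays. On a first principal component with 28.6% of the variance, the extremes were Eed-null replicate 1 and WT replicate 3. With both left out, 0 members were called in each comparison and Selp differed by 1.505 in Eed-null minus WT and 2.25 in Eed-null minus Ezh2-null. Of the granulocyte markers 20 of 20 measured were above background in every array, with averages of 12.11 to 12.52 in Eed-null, 12.27 to 12.64 in Ezh2-null and 10.97 to 12.42 in WT arrays. Monocyte averages were 7.98 to 8.40, 8.18 to 8.75 and 8.16 to 8.86 in the same order, and cell cycle averages 9.48 to 10.31, 10.09 to 10.56 and 10.15 to 10.71. Averages of 6.55 to 7.00 for mast cell and basophil genes, 7.86 to 8.67 for stem and progenitor genes, 6.39 to 6.76 for B cell genes and 6.41 to 6.74 for T and NK cell genes covered all 10 arrays, and 0 genes of any of these lists were called (limma), with at most 9 of 24 cell cycle genes, all lower in Eed-null, at an unadjusted p under 0.05. Precision is limited by how few arrays each genotype had.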

How the data were processed

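Bone marrow cells sorted for GFP and YFP were profiled on 10 arrays from RNA extracted with Trizol and amplified with a NuGEN kit, per the labels. The authors deposited RMA intensity values (per the submitters' processing notes; the sources used here name no version). They were on a linear scale and were converted here to log2 after a floor of 1. A further table of WT and Ezh2-null intensities, to which ComBat had been applied together with a second series according to its header, gave the symbols and served only as an alternative. Its 9 columns of the other series were not used.

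Of 45101 probe sets, 37762 had 1 usable symbol and gave 20564 genes. Symbols were updated through RefSeq. For a gene with several probe sets, the 1 with the highest mean was kept. Tests used limma 3.58.1 under R 4.3.3 (lmFit, eBayes with trend, two-sided, all 10 arrays in 1 fit), checked on simulated data, and the Benjamini-Hochberg adjustment ran over all genes in each comparison. SE is the moderated standard error, SD that between arrays. Groups do not overlap where all values of one lie above all values of the other.

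The members and lists were chosen with earlier results of these data known. The lists were the erythroid and platelet members, other genes of both lineages, granulocyte, monocyte, stromal and endothelial, mast cell and basophil, stem and progenitor, B cell, T and NK cell, and cell cycle genes. All members were named. Values per array were given for those with an unadjusted p under 0.05, without overlap, or with the 3 largest ranges of their lineage. Of other lists, up to 4 genes with the smallest unadjusted p were named, with 2 globins and Alas2 by level, and some genes that this rule names are not reported here. Alternatives were the replicate block, the ComBat values, the 2 groups alone, other choices of probe set, leaving out the dimmest 40% of genes, quantile normalization, adding 32 before log2, no trend, and leaving out each array. Esam, Plvap, Col1a1, Pdgfrb and Lepr were named, and values without 1 array were computed for named genes of other lists, after the data were seen.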

Additional observations from a re-analysis of the deposited data

Results flagged for a closer look

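For Selp, the Eed-null minus Ezh2-null difference was 2.01 on the log2 scale, tested within the same fit (limma, adjusted p = 0.143). All 3 Eed-null arrays lay above the WT mean and all 4 Ezh2-null arrays below it, but Ezh2-null overlapped WT, with a difference of -0.52 (SE 0.39; limma, adjusted p = 1.00). On the other Selp probe sets the Ezh2-null minus WT differences were -0.45 and -0.002. The second of these was the dimmest, with means of 4.79 in both groups, under the background guide. Ezh2-null and WT overlapped on each probe set, so these arrays do not establish a lower level in Ezh2-null than in WT.

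Gata1 in Ezh2-null replicate 1, at 4.59, lay further from the other Ezh2-null arrays than Dixon's 95% critical value allows, and so did Gp5 in Ezh2-null replicate 2, at 5.72. Both values were under the background guide of 6.87. The 4 Ezh2-null arrays were examined in this way for all 29 genes, and chance gives about 1 such value in 20 groups.

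For Thbs1, 2 probe sets that also match another symbol were left out of the comparisons. Their Eed-null arrays did not overlap WT. The first was higher by 1.83 in Eed-null than in WT and the second by 1.20, whereas the Thbs1 probe set used above overlapped between these genotypes, with a difference of 1.15.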

How the results depend on the processing

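No member was called under any alternative in Ezh2-null minus WT or Eed-null minus WT, and 1 was called in Eed-null minus Ezh2-null, Selp at 1.76 with the mean of all probe sets. Over 21 alternatives or fewer per gene, 17, 15 and 15 of the 29 members kept their sign in Ezh2-null minus WT, Eed-null minus WT and Eed-null minus Ezh2-null. Of those that changed sign, the largest was Thbs1 at 1.15 in Eed-null minus WT, which was -0.025 with WT replicate 3 and Eed-null replicate 1 both left out, an alternative chosen after seeing the data. The median of the platelet genes in Ezh2-null minus WT was 0.05, and -0.02 without WT replicate 1. Leaving out the dimmest 40% of genes, dim members included, raised it to 0.24. The same setting gave 0.34 in Eed-null minus WT and 0.27 in Eed-null minus Ezh2-null, against 0.23 and 0.12. Counts over all genes moved further. In Ezh2-null minus WT, 5 genes were called, and 0 with the replicate block, 10 with each probe set separately, 3 with quantile normalization, 2 after adding 32, 3 with no trend and 0 to 4 without 1 array. In Eed-null minus WT, 27 were called, and 1 from the 2 groups alone, 16 with the replicate block and 12 to 42 without 1 array. In Eed-null minus Ezh2-null, 16 were called, and 4 with the replicate block, 28 with the mean of all probe sets, 25 with each probe set, 44 with both named arrays left out and 13 to 36 without 1 array. The cause was not tested. Same-numbered arrays correlated at -0.23 to 0.36 in their deviations from group means, so the numbers were not taken to pair the samples. Probe sets near the background guide of 6.87 limit what can be said of the dimmest members.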
